A study of Mus musculus with 10 samples.

Results

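The genes described here encode enzymes and regulators at the opposing steps of glucose production and glucose breakdown in the hepatocyte. They are the 8 genes Pck1, G6pc, Fbp1, Pcx, Slc37a4, Gckr, Pklr and Pfkfb3, of 14812 gene entries in the tables. They were chosen by name for their place in the pathway, with earlier results of these data known, as were the gene lists used further below. Shares of these genes called, set beside those of all genes, are therefore descriptions and not independent evidence. The entries of the 8 genes are spelled pck1, g6pc, fbp1, pcx, slc37a4, gckr, pklr and pfkfb3 in the tables. All 8 were present, and all 8 passed the filter on low counts. The data are counts of unique molecular identifiers (UMIs, tags that mark single captured RNA molecules) in single hepatocytes of male C57BL/6 mice, aged 3 months and fed regular chow without restriction. The labels give no transgene and no treatment other than the ketamine and xylazine anaesthesia given to the mice before perfusion. Livers were sampled at 4 Zeitgeber times (ZT, hours in the light-dark cycle, with lights on at ZT0 by convention): ZT0 and ZT12 have 3 libraries each (A, B and C), and ZT6 and ZT18 have 2 (A and B). Whether each library came from its own mouse is not in the labels. Each p-value on time below measures the spread between libraries. Tests of position in the lobule compare zones within a library, and their p-values measure how these differences vary across libraries. Either spread may be technical.

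Gluconeogenesis makes new glucose from lactate, amino acids and glycerol, and in the liver it supports blood glucose between meals; glycolysis runs the other way after feeding. The opposing directions are separated at a few irreversible steps, each with its own enzymes, and these enzymes are the classical points of control by glucagon, insulin, glucocorticoids and the circadian clock. Along the liver lobule, blood enters at the portal vein and leaves at the central vein, and glucose production is classically assigned to periportal hepatocytes and glucose use to pericentral ones. Mice eat mostly in the dark, so ZT12, when lights go off, ends their main period of rest.

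The 10 libraries held 18378 cells, 710 to 2860 per library, and 1454623 to 7144803 UMIs, with a median of 1588 to 2662 UMIs per cell. Levels are given as CPM, the gene's UMIs per 1000000 UMIs of the same cells. The hepatocyte label held: all 8 listed hepatocyte markers were found, with a summed level of 44212 to 89051 CPM, lowest in ZT12A. Of the lists of other cell types, 8 endothelial markers summed to 2.75 to 15.9 CPM, 8 macrophage markers to at most 11.5, and 5 of 7 lymphocyte markers were at 0 in every library. Stellate markers summed to 2.97 to 10.5 CPM, and neutrophil markers to at most 7.70. Cholangiocyte markers (5) were higher, at 50.7 to 85.7 CPM. Erythroid markers (5) summed to 72.2 to 108 CPM in 9 libraries and to 361 CPM in ZT18B, which stood apart. The median mitochondrial share per cell ran from 11.97% to 24.7% and was highest in ZT12A and lowest in ZT12C, both of one time. A summed level does not tell fewer cells with the RNA from less RNA per cell.

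Pck1, Slc37a4 and Pfkfb3 followed the time of day, and all were highest at ZT12. A wave with a period of 24 h was called for 3 of the 8 genes, beside 5.14% of the 8908 genes tested (edgeR's quasi-likelihood F-test, with p-values adjusted by Benjamini-Hochberg over all genes and a threshold of 0.05, as for every adjusted p below). The fitted peaks lay at ZT10.2 for Pck1, ZT12.2 for Pfkfb3 and ZT14.1 for Slc37a4. In the direct contrast of ZT12 with ZT0, the same genes were called, all higher at ZT12, beside 3.44% of all genes called in either direction and 1.74% called higher. Of all these calls 50.7% were higher at ZT12, and 66.7% with library size alone as the scale. The median log2 change over the 8 genes was 0.33, and that over all genes tested was within 0.001 of zero. Sampling every 6 h cannot tell a smooth wave from a shorter pulse.

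Pck1 encodes the cytosolic phosphoenolpyruvate carboxykinase, which turns oxaloacetate into phosphoenolpyruvate and commits carbon to glucose. The gene lies on chromosome 2, from 173153048 to 173159273 on the plus strand (GENCODE M21, GRCm38). Its level was 968, 744 and 1014 CPM (ZT0), 1881 and 1386 (ZT6), 3566, 2755 and 2642 (ZT12) and 1034 and 747 CPM (ZT18). Every ZT12 library lay above every ZT6 library, and both ZT6 libraries lay above all those of ZT0 and ZT18, which overlapped. The mean at ZT12 was 1.83 times that at ZT6 and 3.35 times that at ZT18. The fitted wave had an amplitude of 0.88 (log2, mean to peak) and a peak-to-trough fold of 3.41 (edgeR adjusted p = 0.00925). ZT12 exceeded ZT0 by 1.58 ± 0.26 (log2 ± SE, edgeR adjusted p = 0.00353), whereas the drop of 0.80 ± 0.31 from ZT6 to ZT18 did not pass the test (edgeR adjusted p = 0.180).

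Slc37a4 encodes the transporter that carries glucose 6-phosphate into the endoplasmic reticulum, where glucose is released, and it lies on chromosome 9, from 44396852 to 44402968 on the plus strand. Its level was 83.8, 80.1 and 64.0 CPM (ZT0), 90.2 and 66.8 (ZT6), 157, 171 and 191 (ZT12) and 124 and 105 CPM (ZT18). The ZT12 libraries stood above those of all other times, the ZT18 libraries came next without overlap, and ZT6 and ZT0 overlapped. The amplitude was 0.60 (edgeR adjusted p = 0.0168), and ZT12 exceeded ZT0 by 1.03 ± 0.20 (log2, edgeR adjusted p = 0.00930). The rhythm lost its call without ZT12B (amplitude 0.57, edgeR adjusted p = 0.0560), the ZT12 library with the most UMIs.

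Pfkfb3 encodes an enzyme that makes fructose 2,6-bisphosphate, the signal that drives phosphofructokinase and restrains fructose bisphosphatase. It lies on chromosome 2, from 11471433 to 11554077 on the minus strand. Its level was 3.32, 2.08 and 4.05 CPM at ZT0 and 2.84 and 11.98 CPM at ZT6. At ZT12 it was 26.1, 22.4 and 74.8 CPM, and at ZT18 it was 8.49 and 7.01 CPM. The ZT12 libraries lay above all the others, with ZT12C well above ZT12A and ZT12B, while ZT18 and ZT6 overlapped, as did ZT6 and ZT0. These levels rest on few molecules, from 14 to 31 UMIs per library at ZT0, ZT6 and ZT18 and from 38 to 160 at ZT12. The amplitude was 1.82 (edgeR adjusted p = 0.00386), and ZT12 exceeded ZT0 by 3.51 ± 0.51 (log2, edgeR adjusted p = 0.00153).

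**Figure D1:**
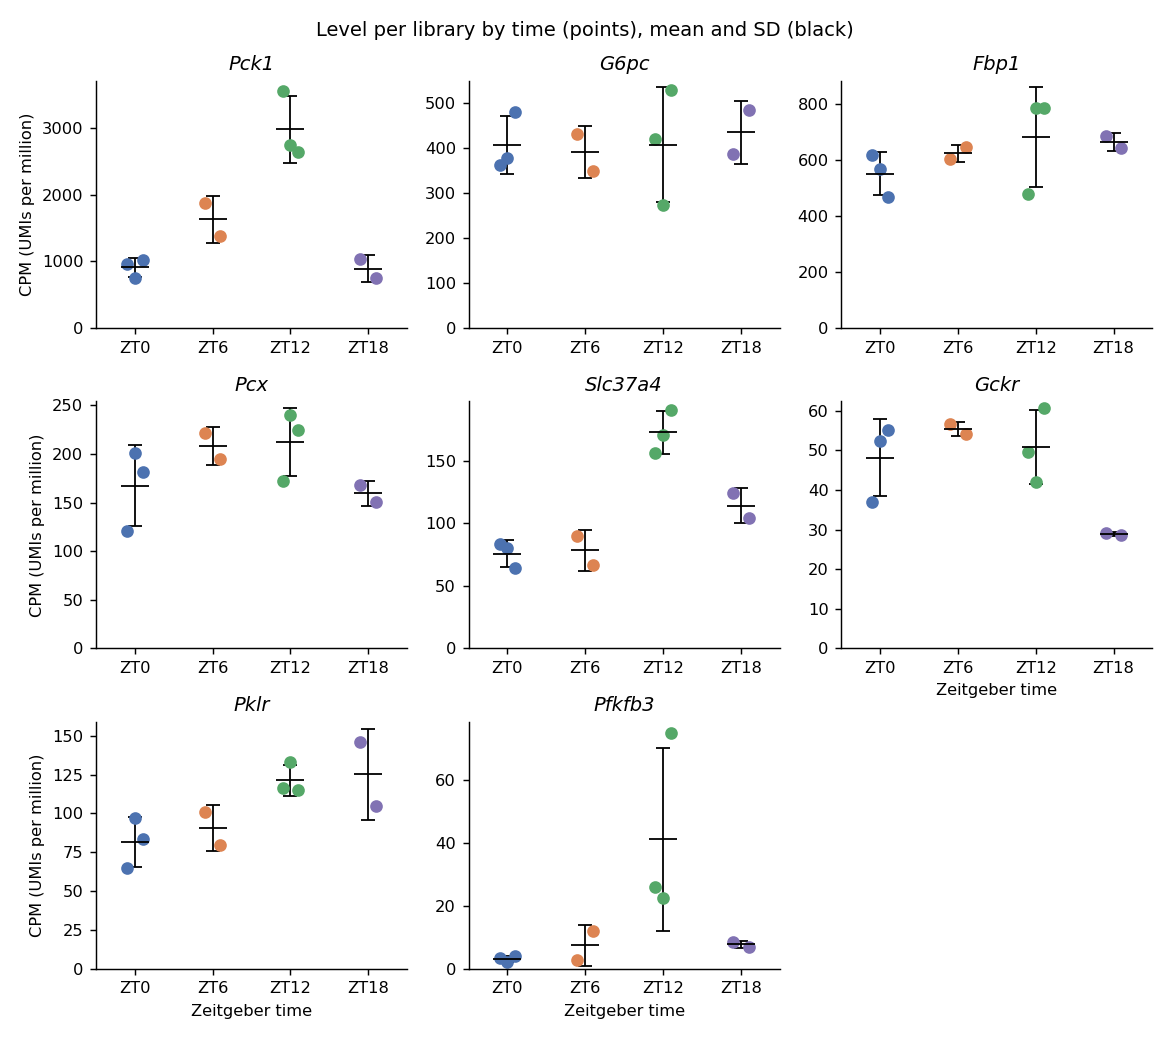
Level of each of the 8 genes in CPM (vertical axis, linear from 0) by Zeitgeber time; each point is a library, and the black mark and bar are the mean and SD of a time (n = 3 at ZT0 and ZT12, n = 2 at ZT6 and ZT18). Pck1, Slc37a4 and Pfkfb3 are highest in the ZT12 libraries, Gckr is lowest in both ZT18 libraries, and the G6pc points overlap across times.

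The sequences just upstream of the genes that followed the time of day are shown, with that of G6pc, which did not, because control of Pck1 and G6pc by cyclic AMP, insulin and the clock is textbook knowledge. They are read from RefSeq promoter windows (GRCm38.p6), 5′ to 3′ on the gene's strand, and only the part outside annotated exons is printed. Capitals mark letters of the motifs searched, on either strand. For Slc37a4 and Pfkfb3, which have several windows, a single window is shown.
Pck1, chr2:173152823-173153047 (plus strand): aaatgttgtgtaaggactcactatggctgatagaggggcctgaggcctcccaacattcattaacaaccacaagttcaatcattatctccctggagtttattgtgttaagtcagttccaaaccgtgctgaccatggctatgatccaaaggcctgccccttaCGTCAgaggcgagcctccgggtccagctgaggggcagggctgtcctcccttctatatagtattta
Slc37a4, chr9:44396696-44396851 (plus strand): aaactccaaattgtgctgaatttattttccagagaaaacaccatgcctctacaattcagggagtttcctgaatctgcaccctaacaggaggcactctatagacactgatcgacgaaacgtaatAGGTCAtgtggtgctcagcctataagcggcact
Pfkfb3, chr2:11502102-11502340 (minus strand): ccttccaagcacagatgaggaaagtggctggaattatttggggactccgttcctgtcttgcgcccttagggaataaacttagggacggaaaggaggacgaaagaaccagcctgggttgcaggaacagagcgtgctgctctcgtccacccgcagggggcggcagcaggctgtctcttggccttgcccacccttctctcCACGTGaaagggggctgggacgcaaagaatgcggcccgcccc
G6pc, chr11:101367466-101367560 (plus strand): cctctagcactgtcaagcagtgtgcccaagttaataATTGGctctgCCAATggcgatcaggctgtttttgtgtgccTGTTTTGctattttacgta

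Windows existed for all 8 genes, 13 windows in all, and 8 motifs were searched over the 250 bases before each start, on both strands and with exact letters. TGACG, a part of the cyclic AMP response element, was found for Pck1 90 bases before the start on the reverse strand (CGTCA in capitals). It was also found in windows of Slc37a4 and Pfkfb3, there within annotated exons that are not printed, and in no window of G6pc, Fbp1, Pcx, Gckr or Pklr. Of all 32851 mouse windows of that length, 17.8% held it. Slc37a4, Pfkfb3, Pcx and Pklr have several windows each, so this share per window is not a share per gene. The E-box CACGTG, the core letters read by clock and related proteins, stood 53 bases before 1 of the Pfkfb3 starts and 248 bases before 1 of the Pcx starts. It was in 6.02% of all windows. The insulin response core CAAAACA, in 5.56% of all windows, was found for G6pc (TGTTTTG in capitals) and Gckr. The nuclear receptor motif AGGTCA, in 14% of windows, was found for Slc37a4, G6pc and Pklr, and CCAAT, in 33.8%, for G6pc, Fbp1, Pcx, Gckr and Pklr. The full cyclic AMP response element TGACGTCA, the D-box TTATGTAA and the forkhead motif TGTTTAC (1.55%, 0.819% and 3.17% of all windows) had no match in these windows. A match is a string of letters and does not show that a factor binds.

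Between ZT18 and ZT6, none of the 8 genes was called by edgeR, beside 3.79% of all genes called in either direction and 2.35% called higher at ZT18. At an unadjusted p below 0.05 there were 4 of the 8, beside 19.6% of all genes. DESeq2 and limma-voom also called 0 of the 8. The gene nearest the threshold was Gckr.

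Gckr encodes a regulatory protein and lies on chromosome 5, from 31297443 to 31327314 on the plus strand. Its level was 37.0, 52.3 and 55.2 CPM (ZT0), 56.7 and 54.1 (ZT6), 49.5, 42.1 and 60.7 (ZT12) and 29.2 and 28.6 CPM (ZT18). The ZT18 libraries lay below all the others, which overlapped among themselves. The change from ZT6 to ZT18 was -0.86 ± 0.23 (log2) and just missed the threshold (edgeR adjusted p = 0.0521). It stayed uncalled under 16 of 20 alternatives. It was called with genes of at least 20 CPM alone (edgeR adjusted p = 0.0463), without ZT0A (0.0332), without ZT12B (0.0431) and with the replicate letter as a block (0.0272). Same-letter libraries of ZT6 and ZT18 did not deviate together (r = 0.0326). The erythroid level of ZT18B stood apart, and its part in this change was not tested.

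Pklr encodes the liver pyruvate kinase, the last step of glycolysis, and lies on chromosome 3, from 89136142 to 89146784 on the plus strand. Its level was 64.8, 97.1 and 83.2 CPM (ZT0), 101 and 80.0 (ZT6), 116, 133 and 115 (ZT12) and 146 and 105 CPM (ZT18). All libraries of ZT12 and ZT18 lay above those of ZT0 and ZT6, without the difference passing the test across genes (rhythm amplitude 0.35, peak at ZT15.4, edgeR adjusted p = 0.175).

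G6pc, Fbp1 and Pcx showed no time of day that the tests could separate. G6pc, the catalytic subunit of glucose 6-phosphatase that releases free glucose, lies on chromosome 11, from 101367561 to 101377903 on the plus strand. It measured 362, 379 and 480 CPM (ZT0), 432 and 350 (ZT6), 421, 273 and 529 (ZT12) and 386 and 485 CPM (ZT18). Both the highest and the lowest library belonged to ZT12, and all 4 times overlapped (rhythm amplitude 0.14, edgeR adjusted p = 0.767). The change from ZT0 to ZT12 was -0.15 ± 0.23 (log2, edgeR adjusted p = 0.813), against 1.58 for Pck1 and 1.03 for Slc37a4, the transporter that supplies the same phosphatase.

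Fbp1 encodes fructose 1,6-bisphosphatase, the step opposed to phosphofructokinase, and lies on chromosome 13, from 62864753 to 62888282 on the minus strand. It measured 618, 570 and 468 CPM (ZT0), 603 and 646 (ZT6), 478, 788 and 787 (ZT12) and 687 and 643 CPM (ZT18). Both ZT18 libraries lay above all ZT0 libraries, every other pair of times overlapped, and ZT12A was close to the lowest ZT0 library (rhythm amplitude 0.11, edgeR adjusted p = 0.854). Pcx encodes pyruvate carboxylase, the mitochondrial entry step from pyruvate, and lies on chromosome 19, from 4510472 to 4621752 on the plus strand. It measured 121, 200 and 181 CPM (ZT0), 222 and 194 (ZT6), 173, 240 and 225 (ZT12) and 168 and 151 CPM (ZT18). ZT12 lay above ZT18, ZT12 and ZT6 overlapped, and both overlapped ZT0 (rhythm amplitude 0.19, edgeR adjusted p = 0.582).

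Libraries of ZT0 and ZT12 with the same letter carried sample indices from the same column of the 10x index plate, so ZT12 can be set against ZT0 within a column. On the log2(CPM + 1) scale, which understates changes of low genes, Pck1 was higher at ZT12 by 1.88, 1.89 and 1.38 in the A, B and C pairs. Slc37a4 was higher by 0.90, 1.09 and 1.56, and Pfkfb3 by 2.65, 2.92 and 3.91. The rise of these genes from ZT0 to ZT12 was therefore present within every column. With the letter as a block, 504 instead of 306 of all genes were called between ZT12 and ZT0, and the calls on the 8 genes were the same. Both ZT6 libraries sit in the column of ZT0B and ZT12B. Both ZT18 libraries sit in a column that no other time uses. The column and ZT18 therefore cannot be told apart, for Gckr or for any other gene that differs at ZT18.

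Position in the lobule was then examined, to ask where along the axis from central to portal vein each gene is expressed. Cells of each library were ordered by 8 periportal and 8 pericentral landmark genes, none of them among the 8, and split into 3 equal zones. Of the 8 genes, 7 differed between the outer zones, 6 of them higher periportally and Pfkfb3 higher pericentrally, beside 24.6% of the 8907 genes tested (11.9% periportal and 12.7% pericentral). Of all calls 48.3% were periportal, and 27.8% with library size alone as the scale. The median difference over the 8 genes was 0.34 (log2, periportal minus pericentral) and that over all genes was -0.01. The log2 differences from edgeR use its own scaling (TMM). CPM values and counts of libraries, here and below, use library size alone, where the median over all genes was -0.11. Periportal rises therefore look smaller in CPM than in the edgeR differences. The zones of the libraries had median UMIs per cell of 1541 to 3089 in the pericentral, 1608 to 2553 in the middle and 1577 to 2720 in the periportal zones. Within a library the periportal median was 0.839 to 1.17 times the pericentral one, and higher in 7 of 10. The median mitochondrial share per cell was higher in the periportal than in the pericentral zone in 10 of 10 libraries, by 1.11 to 1.38 times, and its part in the zone results was not tested.

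Of the genes of glucose production, Pck1, Fbp1, Slc37a4 and G6pc were higher on the portal side, by unequal amounts, and Pcx was not called. Pck1 was 1176 ± 792 CPM in the pericentral, 1669 ± 986 in the middle and 2139 ± 1172 in the periportal zones (mean ± SD, n = 10 libraries). It was higher periportally in 10 of 10 libraries, by 1.05 ± 0.07 (log2, edgeR adjusted p = 7.9e-14). Fbp1 was 447 ± 90.8, 627 ± 127 and 803 ± 137 CPM in the same zones, also in 10 of 10 libraries, a difference of 0.95 ± 0.07 (edgeR adjusted p = 9.7e-13). For both genes the pericentral zone was the lowest in every library. Slc37a4 rose from 96.5 ± 46.2 to 126 ± 48.7 CPM, in 9 of 10 libraries and by 0.52 ± 0.08 (edgeR adjusted p = 2.0e-06). G6pc rose by 0.28 ± 0.07 (edgeR adjusted p = 0.00268). In CPM it rose in 8 of 10 libraries, from 386 ± 89.5 to 433 ± 88.3, a mean log2(CPM + 1) difference of 0.17. Pcx, at 196 ± 41.1 pericentrally and 189 ± 39.2 CPM periportally, differed by 0.05 ± 0.07 (by -0.048 with library size alone) and was not called (edgeR adjusted p = 0.652). Its libraries were mixed, with 4 of 10 higher periportally.

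Among the genes of glucose use and its control the directions differed. Gckr was higher periportally by 0.41 ± 0.10 (log2, edgeR adjusted p = 0.00165), in 8 of 10 libraries, with 41.0 ± 8.26 CPM pericentrally and 51.9 ± 16.3 periportally. Pfkfb3 was the one gene of the 8 called higher pericentrally, by -0.86 ± 0.18 (edgeR adjusted p = 5.1e-04), in 9 of 10 libraries. In the periportal zones of the ZT0 libraries it had only 4, 1 and 2 UMIs, against 13, 9 and 15 in the pericentral zones. With cells of at least 3000 UMIs alone, the Pfkfb3 difference of -0.79 was not called (edgeR adjusted p = 0.120).

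Pklr was the only one of the 8 with a call for the middle of the lobule. It measured 90.7 ± 22.6 CPM in the pericentral, 117 ± 30.3 in the middle and 105 ± 27.6 in the periportal zones, with the middle highest in 8 of 10 libraries. The middle zone exceeded the mean of the outer zones by 0.26 ± 0.06 (log2, edgeR adjusted p = 0.0340), beside 0.663% of all genes called in either direction and 0.551% called higher. The periportal zone also exceeded the pericentral zone by 0.27 ± 0.09 (edgeR adjusted p = 0.0165). Neither Pklr call is firm. The middle call was lost without any one of ZT0A, ZT0B, ZT6A, ZT12A, ZT12C, ZT18A and ZT18B (edgeR adjusted p from 0.0593 to 0.103). It was also lost without both ZT18 libraries, without the 5% of cells with the most UMIs, with odd-numbered or even-numbered landmarks alone and with cells of at least 3000 UMIs (edgeR adjusted p = 0.125, 0.138, 0.225, 0.438 and 0.621). Leaving out ZT12B ended the periportal call (edgeR adjusted p = 0.0793), as did library size alone as the scale (edgeR adjusted p = 0.127) and DESeq2 (adjusted p = 0.0535).

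Levels were also described over 8 finer layers of the same cell order, numbered from the central to the portal side. Pck1 rose from 966 CPM in layer 1 to 2235 in layer 8 and Fbp1 from 362 to 848, both in 10 of 10 libraries. Slc37a4 rose from 87.5 to 125 CPM, also in 10 of 10. Pfkfb3 went the other way, from 28.2 CPM in layer 1 to 11.8 in layer 8, with 1 library as an exception. Pklr had its highest mean, 119 CPM, in layer 5 and its lowest, 77.2 CPM, in layer 1. Its mean was 98.3 CPM in layer 6 and 112 CPM in layer 7, so the layers did not form a single middle peak. The highest and lowest layer means of Pcx were 1.14 times apart and those of G6pc 1.20 times. These layer values are descriptions with no test of their own.

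**Figure D2:**
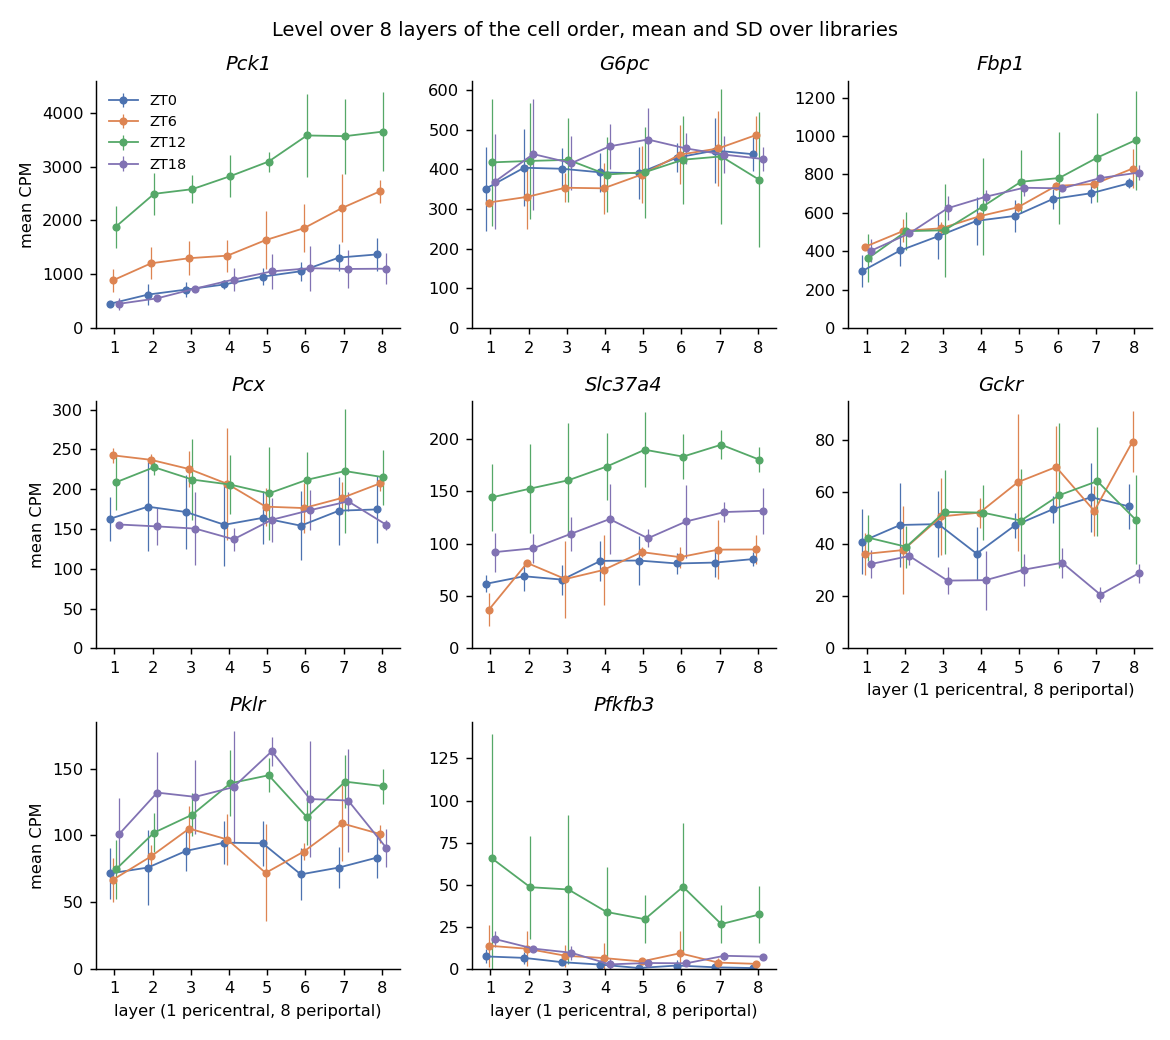
Mean CPM of each gene (vertical axis, linear from 0) over 8 equal layers of the cell order, from layer 1 (pericentral) to layer 8 (periportal), with 1 line per time and bars of 1 SD over libraries (n = 3 at ZT0 and ZT12, n = 2 at ZT6 and ZT18). Pck1 and Fbp1 are higher in layer 8 than in layer 1 at every time. At ZT18 Pck1 is level from layer 6 (1111 CPM) to layer 8 (1101 CPM). The ZT12 line of Pck1 lies above the others in every layer, and the ZT18 line of Gckr lies below the others in every layer.

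Time and place were then set together. At ZT12 the pericentral zones held 2607, 2157 and 1984 CPM of Pck1, more than the 1315, 1026 and 1505 CPM of the periportal zones at ZT0. In layer 1, the most pericentral, Pck1 averaged 1883 ± 390 CPM at ZT12 (SD, n = 3), and in layer 8 at ZT0 it averaged 1367 ± 301 CPM. Mean Pck1 was thus higher at the central end of the lobule at ZT12 than at the portal end at ZT0. The libraries did not overlap by zone, but the SD ranges of these layers did, and the comparison was not tested. The layer means of Slc37a4 had the same order, with 144 ± 31.7 CPM in layer 1 at ZT12 and 85.3 ± 6.27 CPM in layer 8 at ZT0. For Pck1 the ratio of periportal to pericentral means was 2.23 (ZT0), 2.06 (ZT6), 1.60 (ZT12) and 2.01 (ZT18). In log2 terms the 3 ZT12 libraries differed by 0.78, 0.57 and 0.67, all less than the 1.25, 1.17 and 1.07 of ZT0 and the 0.99 and 1.11 of ZT6, while the ZT18 libraries, at 1.36 and 0.58, spanned both.

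Whether the difference between zones itself changed over the day was tested as a zone-dependent rhythm. None of the 8 genes was called by edgeR, beside 0.0337% of all genes (3 of 8907). At an unadjusted p below 0.05 there were 4 of the 8, beside 6.07% of all genes (541), and neither DESeq2 nor limma-voom called any gene. For Pck1 the unadjusted p was 0.0136 and edgeR's adjusted p was 0.672. The lowest values were those of Pfkfb3 (unadjusted p = 0.00924, edgeR adjusted p = 0.633), followed by Gckr (unadjusted p = 0.0118, edgeR adjusted p = 0.662). The mean difference of Pfkfb3 between zones, as log2(CPM + 1), was -1.71 (ZT0), -1.29 (ZT6), -0.42 (ZT12) and -0.84 (ZT18), and 1 of the 3 ZT12 libraries leaned periportally. For Fbp1 it was 0.96, 0.70, 0.98 and 0.67 at the 4 times, periportal in every library. Fbp1 thus kept a steep gradient at all 4 times with no rhythm called in its level. A missed threshold does not show that the gradients stayed the same.

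**Figure D3:**
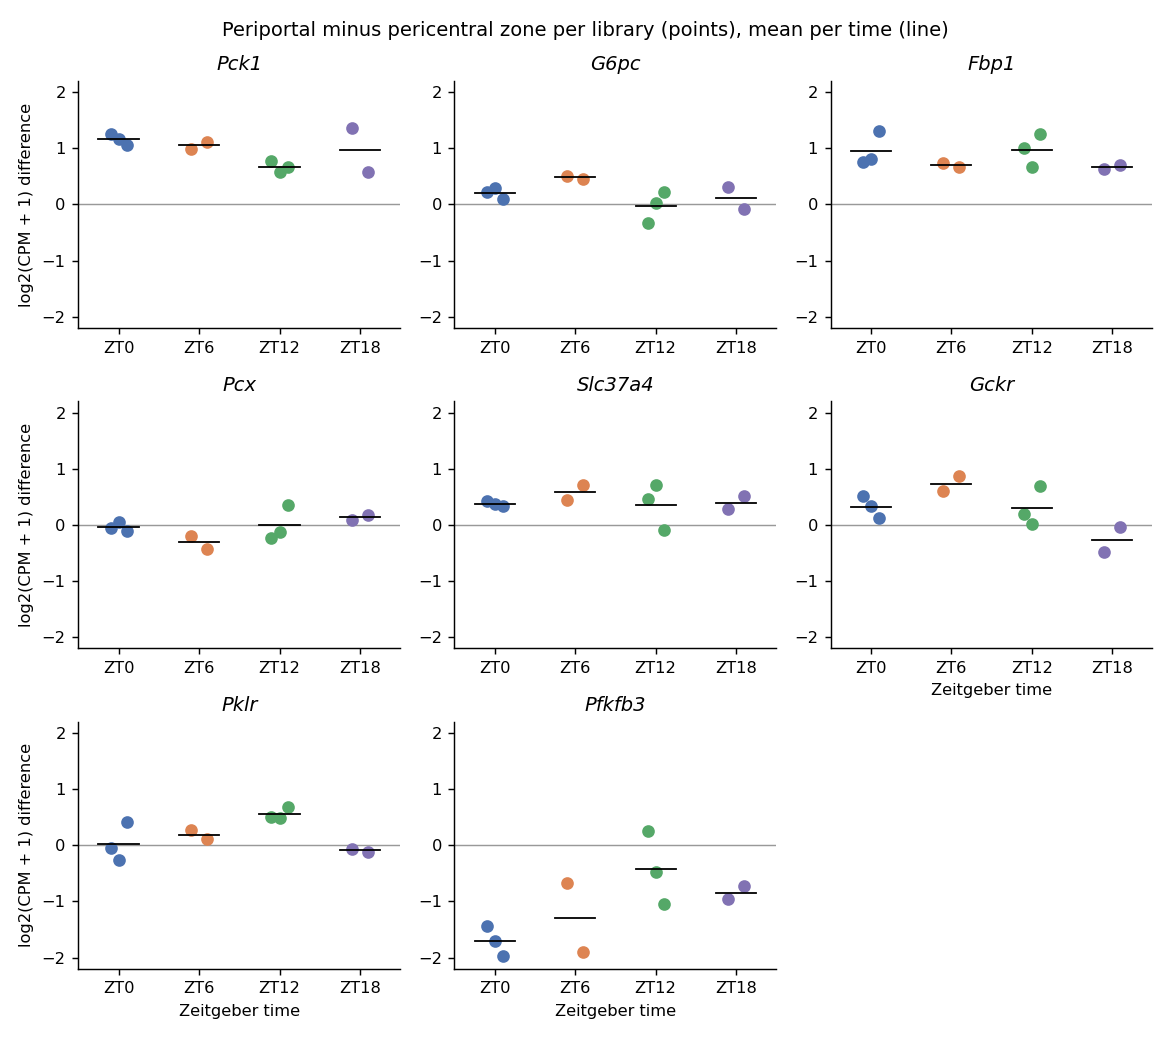
Difference between the periportal and the pericentral zone of each library (vertical axis, log2(CPM + 1), positive is periportal) by Zeitgeber time; points are libraries and the black line is the mean of a time (n = 3 at ZT0 and ZT12, n = 2 at ZT6 and ZT18). Every Pck1 and Fbp1 point is above 0, and the ZT12 points of Pck1 (0.57 to 0.78) are below those of ZT0 and ZT6. Both Gckr points at ZT18 (-0.48 and -0.045) are below 0 on this scale, which uses library size alone.

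Other enzymes and transporters of the pathway were counted from a list of 46 genes, of which 32 were tested. Of these 32, 22 differed between the outer zones, 16 higher periportally and 6 pericentrally (68.8%, beside 24.6% of all genes), with a median difference of 0.25 against -0.01 over all genes. Got1, an aspartate aminotransferase that moves oxaloacetate toward Pck1, was periportal by 1.05 ± 0.08 (log2, edgeR adjusted p = 2.7e-12). Gpi1, the phosphoglucose isomerase, was periportal by 0.72 ± 0.08 (edgeR adjusted p = 1.3e-08). These enzymes serve both directions of the pathway. Pfkfb1, the main liver relative of Pfkfb3, was pericentral by -1.43 ± 0.16 (edgeR adjusted p = 1.2e-08), in 10 of 10 libraries. Gpd2, the mitochondrial glycerol phosphate dehydrogenase, was pericentral by -0.74 ± 0.14 (edgeR adjusted p = 8.6e-05), with 1 of 10 libraries as an exception.

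In time, 1 of the 32 was rhythmic (3.12%, beside 5.14% of all genes). The count was 7 with the replicate letter as a block and 6 with DESeq2. The 1 gene was Slc2a2, the hepatocyte glucose transporter GLUT2, with an amplitude of 0.68 and a peak at ZT10.7 (edgeR adjusted p = 0.0170), near the peak of Pck1; without ZT0B the call was lost (edgeR adjusted p = 0.0516). Slc2a2 measured 163 ± 25.9 CPM at ZT0 and 443 ± 114 CPM at ZT12 (SD, n = 3 each), a difference of 1.28 ± 0.23 (log2, edgeR adjusted p = 0.00661). Of the 32, 3 were called between ZT12 and ZT0 (9.38%, beside 3.44% in either direction and 1.74% higher), all higher at ZT12: Slc2a2, Got1 (1.02 ± 0.26, edgeR adjusted p = 0.0474) and Gpt2, which is named to complete the count. The Got1 call was lost without any one of 7 libraries, ZT12B, ZT18A and ZT18B being the exceptions (edgeR adjusted p from 0.0588 to 0.147). Between ZT18 and ZT6, Pfkfb1 alone was called (3.12% of the 32, beside 3.79%; 2 genes with the replicate letter as a block), higher at ZT18 by 1.83 ± 0.34 (edgeR adjusted p = 0.0105). The Pfkfb1 call was lost without ZT6A, ZT18A or ZT18B (edgeR adjusted p = 0.189, 0.0779 and 0.0606). Its level was 5.51 ± 2.04 CPM at ZT6 and 17.8 ± 1.52 CPM at ZT18 (SD, n = 2 each), so Pfkfb1 was lowest at ZT6. The highest mean of Pfkfb1 was at ZT18 and that of Pfkfb3 at ZT12. The Pfkfb1 libraries of ZT12 (10.8 to 18.6 CPM) and ZT18 (16.7 to 18.9 CPM) overlapped, however. The rhythm of Pfkfb1 was not called (edgeR adjusted p = 0.0686), so a different peak hour is not shown.

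Genes known to control the pathway were counted from a second list of 33, of which 32 were tested. Of these, 4 were rhythmic (12.5%, beside 5.14%). The count was 6 with the replicate letter as a block and 8 with DESeq2. They were Ppargc1a (amplitude 0.69, peak ZT10.1, edgeR adjusted p = 0.00828), Foxo1 (0.64, ZT11.7, edgeR adjusted p = 0.0256), Foxo3 (0.50, ZT11.2, edgeR adjusted p = 0.0259) and Trib3 (1.78, ZT7.4, edgeR adjusted p = 0.0188). Trib3 thus had the largest amplitude and the earliest peak of the 4, at a mean of only 4.31 CPM. The Foxo1 rhythm was lost without any one ZT12 library (edgeR adjusted p from 0.0560 to 0.0727), that of Foxo3 without any one of 6 libraries, ZT0A, ZT0B, ZT12A, ZT12C, ZT18A and ZT18B (up to 0.0771), and that of Trib3 without ZT6A or ZT18A (up to 0.123). Ppargc1a encodes a coactivator of gluconeogenic genes, and Foxo1 the forkhead factor that insulin expels from the nucleus. Ppargc1a measured 9.56 ± 2.28 CPM (ZT0), 20.8 ± 2.70 (ZT6), 24.7 ± 0.947 (ZT12) and 12.6 ± 1.37 CPM (ZT18). Its order of times was that of Pck1 except at the low end. Ppargc1a was also periportal in 10 of 10 libraries, by 1.73 ± 0.16 (log2, edgeR adjusted p = 8.8e-11), from 7.99 ± 3.48 to 26.1 ± 12.9 CPM. Of the 32 control genes, 10 differed between zones (31.2%, beside 24.6%), 6 periportally and 4 pericentrally, among the latter Cebpb (-0.72 ± 0.07, edgeR adjusted p = 1.2e-09) and Irs1 (-0.54 ± 0.16, edgeR adjusted p = 0.00832; 0.0860 without ZT0C).

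Between ZT12 and ZT0, 3 control genes were called (9.38%, beside 3.44%; 5 with the replicate letter as a block), all higher at ZT12: Foxo1 by 1.28 ± 0.19 (edgeR adjusted p = 0.00153), Ppargc1a by 1.22 ± 0.22 (edgeR adjusted p = 0.00612) and Foxo3, named to complete the count. Foxo1 measured 28.3 ± 3.23 CPM at ZT0 and 77.0 ± 17.9 CPM at ZT12 (SD, n = 3 each). Between ZT18 and ZT6, 3 control genes were called (9.38%, beside 3.79%; 7 with the replicate letter as a block). Mlx, a partner of the carbohydrate response factor, was higher at ZT18 (0.93 ± 0.23, edgeR adjusted p = 0.0372). Nr0b2, the nuclear receptor SHP, was lower (-1.98 ± 0.42, edgeR adjusted p = 0.0208). Trib3 was lower as well, from 10.5 ± 3.87 CPM at ZT6 to 1.15 ± 0.286 at ZT18 (edgeR adjusted p = 0.0338), where it had 3 and 5 UMIs per library. None of these ZT18 calls held without ZT6A, ZT18A or ZT18B, where edgeR's adjusted p was 0.159 or higher, nor did those of Mlx and Trib3 without ZT6B.

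**Figure D4:**
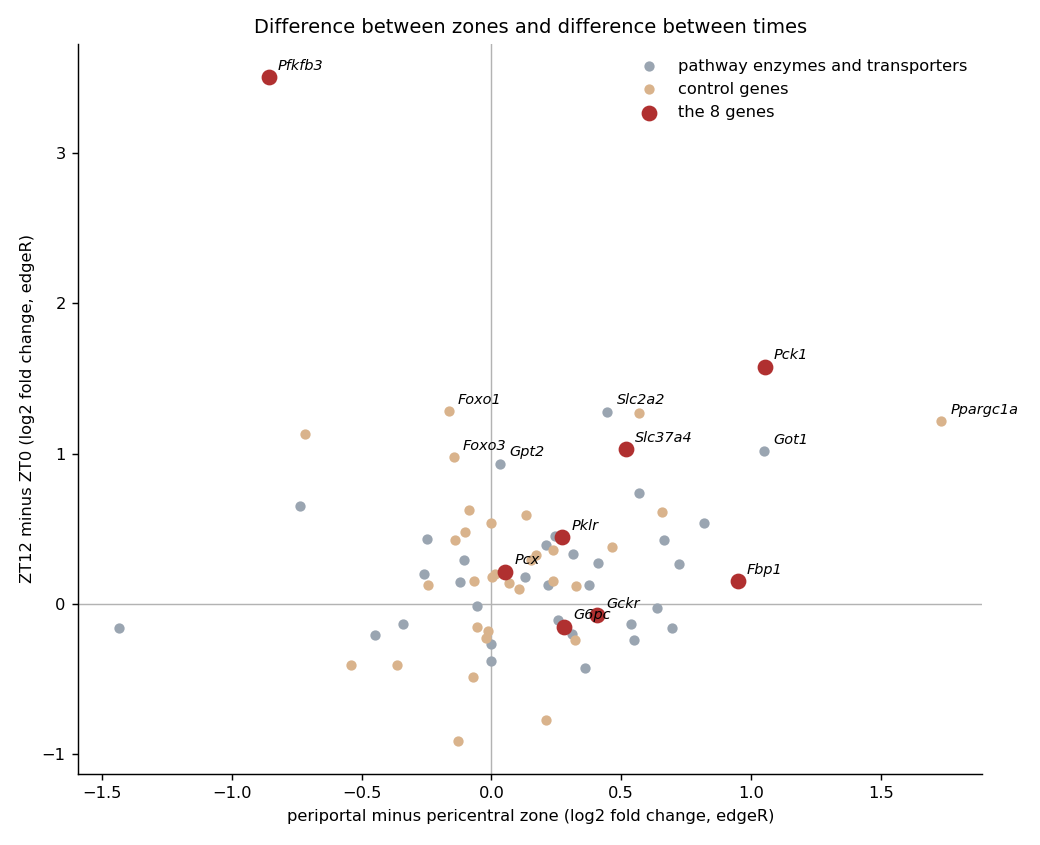
Log2 fold change between the periportal and pericentral zones (horizontal axis) against that between ZT12 and ZT0 (vertical axis), both from edgeR; large red points are the 8 genes, and small points are the 32 tested enzymes and transporters and the 32 tested control genes. Pck1 (1.05 and 1.58) and Ppargc1a (1.73 and 1.22) lie toward the upper right, Pfkfb3 (-0.86 and 3.51) lies at the upper left, and Fbp1 (0.95 and 0.15) lies far to the right near the zero line of time.

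As a description, each gene's log-scale level was correlated with that of every gene of at least 20 CPM over the 30 sums of 10 libraries and 3 zones. Zones of a library share that library, so these points are not independent, and no test is given. The most similar gene was Slc2a2 for Pck1 (r = 0.91), Usp2, a deubiquitinase, for Pfkfb3 (0.90), Nampt, an enzyme of NAD synthesis, for Slc37a4 (0.89) and Ctnnbip1 for Fbp1 (0.89). For Pklr it was Tkfc, a kinase of fructose breakdown (0.84), for Pcx Ctsd (0.91), for Gckr Tcp11l2 (0.82) and for G6pc Irf2bp2 (0.78). None of the 8 was the most similar gene of another, but Pfkfb3, at a mean of 16.4 CPM, was below the limit and could not be returned.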

How the data were processed

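UMI counts per gene and cell were deposited as whole numbers, which the authors had made from 10x Chromium 3′ (version 2) libraries of collagenase-isolated, Percoll-purified hepatocytes, per the labels' protocols. Cell Ranger and the builds hg19 and mm10 are named in the submitters' processing notes, with no role given; which annotation and which cell filter were used is not given in the sources used here. Cells held 1048 to 10001 UMIs and all were kept; no doublet caller was run, and an alternative dropped each library's top 5% of cells by UMIs. Cell names are serial numbers, so barcodes shared between libraries could not be counted. Replicates differed by more than sampling noise (chi-square per degree of freedom 5.30 to 63.6). The value was 5.66 at ZT6 and 5.30 at ZT18, where both libraries of a time share an index column. It was 20.9 to 63.6 at ZT0 and ZT12, where each library of a time has its own column. The spread within ZT6 or ZT18 may therefore not be comparable to that within ZT0 or ZT12, and the part of the column was not tested.

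Groups came from the sample titles. UMIs were summed per library (time) or per library and zone, normalized by TMM and tested with edgeR 4.0.16 (R 4.3.3) for genes averaging 3 CPM or more, with Benjamini-Hochberg adjustment over all genes. Rhythm was tested with a cosine and a sine term of 24 h together (F-test, 2 df). The contrasts ZT12 against ZT0 and ZT18 against ZT6 came from a model with 1 mean per time, and zone tests had the library as a block. Standard errors are the absolute log2 change over the root of its F value. Cells were ordered by the mean z-score of periportal landmarks (Ass1, Cyp2f2, Asl, Ctsc, Hal, Pigr, Ftcd, Hsd17b13) less that of pericentral ones (Cyp2e1, Gulo, Oat, Aldh1a1, Mgst1, Cyp1a2, Lect2, Rgn), and these landmarks were left out of counts of calls. On simulated counts, the rhythm test recovered 89% of genes with an amplitude of 1 and 16% with 0.5.

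Deviations from the group means correlated at 0.239 to 0.485 between ZT0 and ZT12 libraries of the same letter and at -0.325 to -0.106 between those of different letters. Deviations cancel out within a time, so positive values for the same letter bring negative ones for different letters, which add no support. On the same-letter values, letters were taken to pair ZT0 with ZT12. The main tests had no term for the letter, which was used as a block in an alternative. Between ZT6 and ZT18 the correlation was 0.0326. The genes and both lists were chosen with earlier results of these data known. Of the 9 genes of the set, 1 is not reported here, nor is 1 gene of the lists. From the lists, the 4 called genes with the largest change per comparison and direction are named (for rhythm, the 6 with the largest amplitude). Alternatives included DESeq2 1.42.0, limma-voom (limma 3.58.1), other scalings, filters, cell orders and each library left out.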

Additional observations from a re-analysis of the deposited data

Results flagged for a closer look

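Gckr, Pklr and Pcx had a difference between zones of one sign in every library of one time and of the other sign in every library of another. The share of all genes that meet this rule is not given here, so these signs are a description. With so few libraries per time, such a pattern can arise easily. The values are means of the periportal minus the pericentral zone on the log2(CPM + 1) scale, over 2 libraries at ZT6 and ZT18 and 3 at ZT0 and ZT12. Gckr was periportal at ZT0 (0.32), ZT6 (0.74) and ZT12 (0.30) and pericentral at ZT18 (-0.26). Some of its libraries were close to no difference, with 0.0097 in ZT12B and -0.045 in ZT18B. ZT18B had 35 pericentral and 38 periportal UMIs of Gckr. Pklr was periportal at ZT6 (0.19) and ZT12 (0.56) and pericentral at ZT18 (-0.088). These values are scaled by library size alone, where the median of all genes between zones was -0.11, against -0.01 with TMM. The Pklr value at ZT18 lies near that median, and the Gckr value of ZT18B lies above it. The sign of both may therefore depend on the scale, and with it the shared sign of the Gckr libraries at ZT18. Pcx was pericentral at ZT6 (-0.31) and periportal at ZT18 (0.14). The pairs of times themselves were not tested against each other. The test of a zone-dependent rhythm over all 4 times called none of these genes, with edgeR adjusted p = 0.662 for Gckr, 0.724 for Pklr and 0.883 for Pcx. Each of these pairs of times includes ZT18, the time alone in its index column.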

How the results depend on the processing

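Of 48 results on the 8 genes, 14 were called and 10 of these held under every alternative run; the other 4 are described with their values above. None of the 14 reversed, and 33 of 34 uncalled results stayed uncalled. The number of all genes called moved more. For rhythm (458) it was 792 with DESeq2, 710 with no filter, 283 with at least 20 CPM, 231 without both ZT18 libraries and 228 to 465 with 1 library left out. For ZT12 against ZT0 (306) it was 469 with no filter and 767 with the index column as a term. For ZT18 against ZT6 (338) it was 595 with no filter, 199 with at least 20 CPM and 50 (without ZT6A) to 494 with 1 library left out. With the replicate letter as a block these counts were 749, 504 and 730, and of the calls on the 8 genes only that of Gckr between ZT18 and ZT6 changed. Between the outer zones (2194), cells with at least 3000 UMIs gave 1218. For the middle zone (59) the count was 36 with DESeq2, 127 with no filter, 37 with odd-numbered and 27 with even-numbered landmarks, 37 with cells of at least 3000 UMIs, and 30 to 97 with 1 library left out. For zone-dependent rhythm (3) it was 0 with DESeq2, limma-voom or at least 20 CPM, 5 with library size alone, with the ratio score or without Mup, Gm-numbered and -ps entries, 42 with no filter, 1 without both ZT18 libraries or with odd-numbered landmarks, 6 with 4 levels of time, 29 with cells of at least 3000 UMIs, 32 with the replicate block on the zone difference, and 0 to 36 with 1 library left out.

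Among uncalled results, signs changed as follows. With 1 library left out, ZT12 against ZT0 ran from -0.33 to 0.033 for G6pc, -0.023 to 0.34 for Fbp1 and -0.19 to 0.013 for Gckr, and ZT18 against ZT6 from -0.61 to 1.56 for Pfkfb3. The middle zone ran from -0.064 to 0.015 for Gckr. With library size alone, Gckr between ZT12 and ZT0 was 0.065 and Pcx between zones -0.048. For the middle zone, Gckr was 0.060 with even-numbered landmarks and 0.074 with cells of at least 3000 UMIs, and G6pc -0.0033 with odd-numbered landmarks. The phase of the zone-dependent rhythm moved by over 6 h for Fbp1 (amplitude 0.0098 to 0.12 with 1 library left out, 0.23 without both ZT18 libraries) and, in cells of at least 3000 UMIs, for Slc37a4 (0.11). The cause was not tested. Library size alone moved the median of all genes to 0.13 between ZT12 and ZT0 and to -0.11 between zones, and changes are relative to TMM.

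Rhythm calls among the 32 listed enzymes ranged from 0 to 7 (main 1; 7 with the replicate block) and among the control genes from 2 to 8 (main 4; 8 with DESeq2). Between ZT12 and ZT0 they ranged from 1 to 5 and 2 to 6 (main 3 each), and between ZT18 and ZT6 from 0 to 2 (main 1) and 0 to 7 (main 3). Between zones they ranged from 15 to 23 (main 22) and 6 to 10 (main 10). The alternative without mitochondrially encoded genes was chosen after seeing the data. Depth limits Pfkfb3, with as few as 1 UMI in a zone of a library. On simulated counts, a log2 change of 1 was recovered for 17% of genes between ZT12 and ZT0 and for 0% between ZT18 and ZT6, so a missed call there does not show that levels were equal.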
